A study of Mus musculus with 2 samples.

Results

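The genes described here are the mouse zinc finger genes with a Zfp symbol that lie outside gene clusters picked for lowered zinc finger genes in H3.3 G34R embryonic stem (ES) cells. Not every Zfp gene inside those clusters was lower. They were chosen as genes whose symbol starts with Zfp and digits, with at least 1 RPKM (reads per kilobase of transcript, scaled to the reads of the library) in 1 sample. Zfp57, chromosome 8 and 6 regions were left out, by mm9 start position. These regions were 174.7 to 179.8 Mb of chromosome 2, 141.4 to 147.5 Mb of chromosome 4, 5.0 to 13.5 Mb and 40 to 51.8 Mb of chromosome 7, 65.2 to 67.7 Mb of chromosome 13 and 18 to 23.7 Mb of chromosome 17. This left 203 members out of 271 Zfp genes at 1 RPKM or more and of 371 Zfp genes in the files. The regions had been picked from the ratio of G34R to WT cells in the same 2 libraries, so the members' own ratios are given below as a description, with no test.

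RNA-seq was available as 1 library of WT mouse ES cells (H3f3a+/+; H3f3b+/+) and 1 library of G34R cells (H3f3a+/G34R; H3f3b+/+). Both cell lines were labelled as strain 129S1/SvImJ and grown in serum with LIF, at a passage number under 20. In G34R cells the mutant histone is made from the endogenous H3f3a promoter after Cre excision of a conditional allele, and H3f3b is wild type in both lines. Which G34R clone was sequenced is not given in the sources used here, and genotype, clone and library cannot be told apart.

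Most Zfp genes encode proteins with tandem C2H2 zinc fingers, in which paired cysteines and histidines hold a zinc ion and each finger can contact a few bases of DNA. Many of them also carry a KRAB domain near the start of the protein, which recruits the corepressor TRIM28 and through it the H3K9 methyltransferase SETDB1. In ES cells KRAB zinc finger proteins are known for silencing retrotransposons and keeping imprints. They have multiplied by local duplication, so that they often sit in clusters of near relatives. Zfp genes without KRAB include transcription factors, chromatin cofactors and RNA-binding proteins, and the Zfp36 family has CCCH fingers that bind mRNA.

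The KRAB start is shown first because it marks the class that held every member more than 2-fold lower in G34R cells under the widest pattern searched. Each line gives the genomic coding bases (mm9) for the start of the KRAB A box, and capitals mark the codons of the residues that the search required.
Zfp951: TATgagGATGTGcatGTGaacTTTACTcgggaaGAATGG
Zfp846: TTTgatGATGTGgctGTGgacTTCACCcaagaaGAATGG
Zfp809: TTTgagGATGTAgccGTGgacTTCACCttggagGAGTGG
Zfp626: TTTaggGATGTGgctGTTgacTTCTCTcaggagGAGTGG
Zfp59: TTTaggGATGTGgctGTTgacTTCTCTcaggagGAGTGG
Zfp607: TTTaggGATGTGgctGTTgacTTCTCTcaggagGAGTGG
Zfp960: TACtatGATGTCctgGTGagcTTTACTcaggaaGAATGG
Zfp97: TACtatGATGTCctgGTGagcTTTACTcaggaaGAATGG
These stretches lie in exon 2 of the transcripts used, except that of Zfp846, which lies in exon 3. Those of Zfp626 (chr7:28593232-28593270), Zfp59 (chr7:28629316-28629354) and Zfp607 (chr7:28648420-28648458) were the same in all 39 bases. Those of Zfp960 (chr17:17222497-17222535) and Zfp97 (chr17:17279712-17279750) were also the same in all 39 bases, and differed from the chromosome 7 stretch at 16. The stretches of Zfp951 (chr5:105246092-105246130, minus strand), Zfp846 (chr9:20392965-20393003) and Zfp809 (chr9:22039476-22039514) differed from each other at 8 to 12 bases. Stretches without a strand named lie on the plus strand.

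A C2H2 finger is shown for Zfp809, the best known of the lower members, and for Zfp553, which is without KRAB and was higher in G34R cells. Capitals mark the codons of the cysteines and histidines that bind zinc.
Zfp809: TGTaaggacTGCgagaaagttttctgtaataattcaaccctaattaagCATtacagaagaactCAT
Zfp553: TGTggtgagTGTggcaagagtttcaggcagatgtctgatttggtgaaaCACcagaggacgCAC
The Zfp809 finger lies at chr9:22043121-22043186 in exon 5 and the Zfp553 finger at chr7:134379041-134379103 in exon 2. For contrast, a CCCH finger of the Zfp36 family has 3 cysteines and 1 histidine, shown for the members with the highest ratios in that family.
Zfp36l2: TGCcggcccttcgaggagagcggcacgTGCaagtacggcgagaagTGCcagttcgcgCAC
Zfp36l1: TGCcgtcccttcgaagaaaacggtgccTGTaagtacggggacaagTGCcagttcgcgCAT
These lie in exon 2 of Zfp36l2 (chr17:84586008-84586067, minus strand) and exon 2 of Zfp36l1 (chr12:81211176-81211235, minus strand).

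The depth, read from the RPKM steps of short single-exon genes, was about 87.9 M reads in WT cells and 72.2 M in G34R cells. RPKM sums were 156468 and 151548, and 10728 of 26127 probes had at least 1 RPKM in 1 sample. Pou5f1, an ES cell marker, had 194.3 RPKM in WT and 189.5 in G34R cells, and Sox2 had 73.8 and 75.1. Nanog went from 127.1 to 52.2 RPKM, with a log2 ratio of -1.28, and was the only one of 6 ES cell markers past 2-fold. All 5 fibroblast markers were at 1.18 RPKM or below in both samples and all 4 mesoderm markers at 0.16 or below. Gata4 and Gata6, of 5 primitive endoderm markers, went from 0.50 to 1.18 and from 0.30 to 1.09 RPKM. Of the neural markers Olig2 had 0.03 RPKM in WT cells and 17.7 in G34R cells, Neurod1 had 2.01 and 3.91, and Pax6 had 0.13 and 0.03. The part of these cell states in the values below was not tested, and in bulk RNA fewer cells of a type and less RNA per cell cannot be told apart. H3f3a itself went from 8.17 RPKM in WT to 4.89 in G34R cells, and H3f3b from 68.8 to 58.8. RPKM does not separate the mutant allele, so these levels do not check the labels.

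Zfp genes outside the clusters were mostly expressed at low levels and changed little. The median member had 2.86 RPKM in WT cells and 2.56 in G34R cells. By log2 (G34R/WT RPKM), 11 of 203 members (5.42%) were more than 2-fold lower in G34R cells, beside 6.42% of all 10728 genes, and 2 members (0.985%) were more than 2-fold higher, beside 4.09%. At 1.5-fold, 31 members (15.3%) were lower, beside 14.1% of all genes, and 10 (4.93%) were higher, beside 11.3%. At 3-fold, 2 members were lower, beside 3.29%, and none was higher, beside 1.57%. The members' median log2 ratio was -0.10 (quartiles -0.40 and 0.20), and that of all genes was -0.05 (quartiles -0.35 and 0.25). A ratio under 0 was found in 114 members (56.2%), beside 54.8% of all genes.

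With 1 library per cell line, no value has a replicate error. The only error given is a 95% exact interval of each ratio from the estimated reads of the gene, which covers counting error only. By this interval 96 members (47.3%) were below 0 and 59 (29.1%) above it, beside 43.9% and 34.9% of about 10470 genes with such an interval. Counting alone therefore sets most ratios apart from 0, and nothing here measures how far 2 libraries of the same cells would differ.

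**Figure D1:**
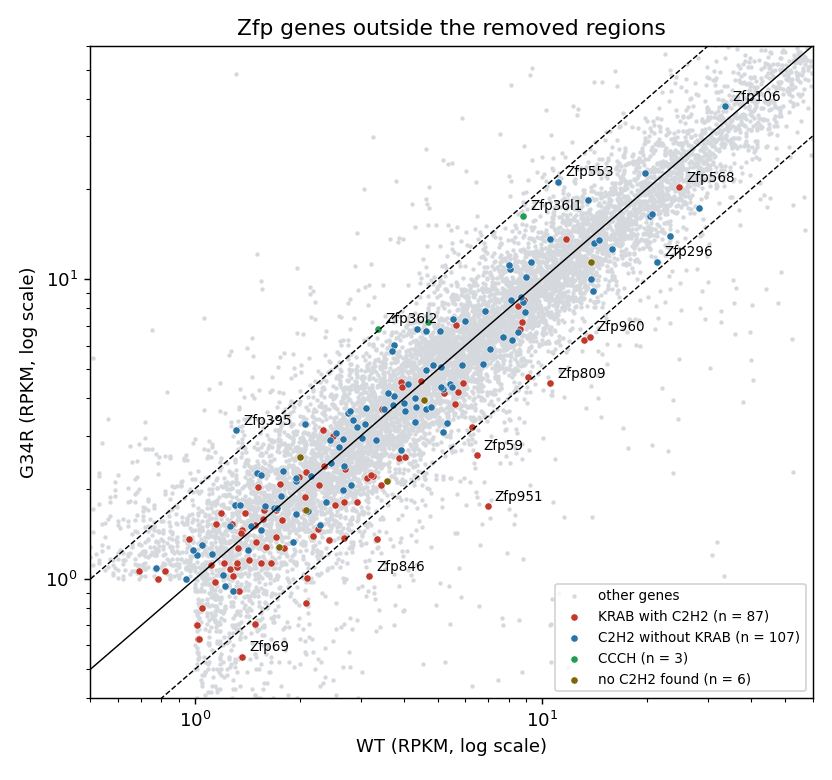
RPKM in WT cells (x axis, log scale) and G34R cells (y axis, log scale) for the 203 members, coloured by protein class, over other genes at 1 RPKM or more in 1 sample (grey, with some outside the axes). The solid line marks equal values and the dashed lines 2-fold. The 11 points below the lower dashed line are all of the KRAB class, and the points above the upper dashed line are Zfp395 and Zfp36l2.

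The members were then divided by protein sequence. KRAB boxes and fingers were searched by pattern in the GENCODE M1 protein translations, with patterns settled after the ratios were known, and a gene was placed in the KRAB class where either stretch of the KRAB A box and C2H2 fingers were found in any of its coding transcripts. Fingers per gene were counted in the longest protein, and Zfp707 has its C2H2 fingers only in a shorter one. This gave 87 KRAB members, 107 with C2H2 fingers and no KRAB found, 3 with CCCH fingers and 6 with neither finger found in any transcript. The patterns can miss a degenerate box, and an incomplete gene model can hide one.

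All 11 members more than 2-fold lower in G34R cells were KRAB members, which is 12.6% of that class, beside 6.42% of all genes. No KRAB member was more than 2-fold higher, beside 4.09% of all genes. None of the 107 C2H2 members without KRAB was more than 2-fold lower, and 1 (Zfp395, 0.935%) was more than 2-fold higher. At 1.5-fold, 23 KRAB members (26.4%) were lower and 1 (1.15%) was higher, beside 14.1% and 11.3% of all genes. Of those without KRAB 7 (6.54%) were lower and 6 (5.61%) higher. The C2H2 members without KRAB were thus below the shares of all genes in both directions, so the contrast between the classes is wider than that between KRAB members and all genes. The median log2 ratio was -0.29 over the KRAB members (quartiles -0.62 and 0.05) and 0.04 over the C2H2 members without KRAB (quartiles -0.27 and 0.26). A ratio under 0 was found in 60 KRAB members (69.0%) and in 49 of the others with C2H2 fingers (45.8%). By the counting interval, 51 KRAB members were below 0 and 14 above it, and the C2H2 members without KRAB were evenly divided, with 41 on each side. The 6 members with neither finger found had a median log2 ratio of -0.29 as well, and 5 of them were under 0.

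The number of lower members placed in the KRAB class depended on the pattern, which had been widened after the ratios were seen. A stricter pattern in the longest protein alone, without boxes that start with tyrosine, put 57 members in the class, and 7 of the 11 lower members were among them. Zfp951, Zfp960, Zfp97 and Zfp119a were not. With only the N-terminal stretch of the box, 72 members were in the KRAB class and 11 were more than 2-fold lower. With only the C-terminal stretch, 74 members were in it and 8 were lower, so that 3 lower members fell among the rest. The classes differed in level as well, since KRAB members had a median of 2.09 RPKM in WT and 1.7 in G34R cells, and C2H2 members without KRAB had 3.75 and 3.70.

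**Figure D2:**
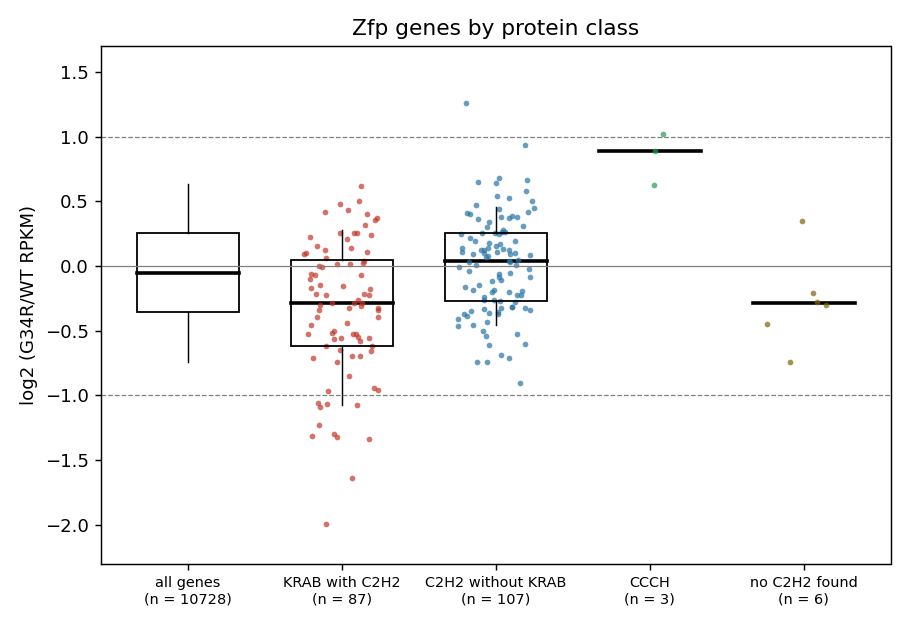
The log2 (G34R/WT RPKM) of each member (points) by protein class, with the median (thick line), quartiles (box) and 10th and 90th percentiles (thin lines) for classes of over 10 members and for all genes, whose single points are left out. Dashed lines mark 2-fold. The KRAB class sits lowest of the C2H2 classes, with a median of -0.29 against 0.04 without KRAB, and the 3 CCCH genes all sit above 0.5. The 6 members with neither finger found also have a median of -0.29.

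The classes were set side by side at matched levels, by RPKM in the higher sample. Between 5 and 20 RPKM, 5 of 17 KRAB members (29.4%) were more than 2-fold lower, with a median log2 ratio of -0.44. None of the 41 members without KRAB at that level was lower, and their median was -0.01. Of all genes at that level 3.95% were lower. The classes here use the widest KRAB pattern, settled after the ratios were known. The stricter pattern did not find Zfp951, Zfp960 and Zfp97, which are among the 5 lower KRAB members at this level. Zfp960 and Zfp97 also share most of their sequence with other genes. Between 2 and 5 RPKM, 4 of 32 KRAB members (12.5%) and none of 45 others were lower, with medians of -0.52 and 0.08, beside 6.68% of all genes. Between 1 and 2 RPKM, 2 of 37 KRAB members (5.41%) and none of 22 others were lower, with medians of -0.18 and 0.07, beside 13.7% of all genes. Zfp69, Zfp119a and Zfp607, which are among these lower members, were under 1 RPKM in G34R cells and passed the minimum only through WT cells. At 20 RPKM or more there was 1 KRAB member, Zfp568 (log2 -0.29). The 8 members without KRAB at that level had a median of -0.33, and 3 of them (37.5%) were more than 1.5-fold lower, beside 10.1% of all genes.

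**Figure D3:**
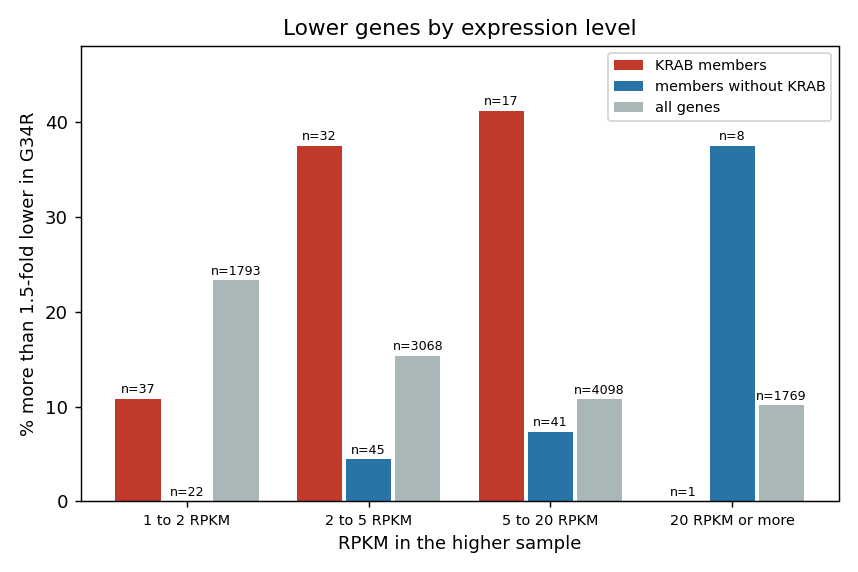
Percent of genes more than 1.5-fold lower in G34R cells (y axis, from 0) by RPKM in the higher sample (x axis), for KRAB members, other members and all genes, with the number of genes over each bar. KRAB bars reach 37.5% at 2 to 5 RPKM and 41.2% at 5 to 20 RPKM, and the bar of 37.5% at 20 RPKM or more stands for only 8 members without KRAB.

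KRAB genes are often near copies of each other, so reads can be shared between them. A read was counted once at its primary alignment. As a guide, the share of each gene's 50-base stretches that also occurs in protein-coding transcripts of another gene was used. Noncoding transcripts and inexact copies were not searched. Of the KRAB members, 64 shared under 5% of their stretches, and 5 of these (7.81%) were more than 2-fold lower, with a median log2 ratio of -0.22. The other 23 shared 5% or more, and 6 of these (26.1%) were lower, with a median of -0.53. Of all genes 6.42% were lower, so the share among the 64 was near that of all genes. The 2 members more than 3-fold lower were among the 64. The levels of genes that share sequence are uncertain, and the part of read sharing in the ratios was not tested. By number of fingers, none of 43 members with under 5 was more than 2-fold lower (median 0.14). With 5 to 9 fingers 4 of 64 were (6.25%, median -0.11), and with 10 or more 7 of 96 were (7.29%, median -0.21). The last 2 shares were near the 6.42% of all genes. None of 36 members without KRAB and with 10 fingers or more was more than 2-fold lower (median 0.02). Of the KRAB members 7 of 60 with 10 or more (11.7%, median -0.29) and 4 of 27 with fewer (14.8%, median -0.32) were. The classes here use the widest KRAB pattern, settled after the ratios were known. The stricter pattern did not find Zfp951 and Zfp97, which are lower members with 10 or more fingers. The absence of lower members without KRAB therefore depends on the pattern.

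Zfp951, a KRAB zinc finger gene on chromosome 5 with 10 fingers, had 6.96 RPKM in WT cells and 1.75 in G34R cells. Its log2 ratio of -1.99 (counting interval -2.20 to -1.78) was the lowest of all members. Zfp846, a KRAB gene on chromosome 9 with 15 fingers, had 3.18 and 1.02 RPKM, a log2 ratio of -1.64 (-1.87 to -1.42). These were the members more than 3-fold lower, and they share under 0.3% of their sequence with other genes.

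Zfp809 encodes a KRAB protein that binds the primer binding site of murine leukaemia virus and silences the provirus in ES cells. It had 10.5 RPKM in WT cells and 4.49 in G34R cells, a log2 ratio of -1.23 (-1.39 to -1.07), from about 1189 and 417 reads. None of its 50-base stretches occurred in a protein-coding transcript of another gene. The other members known for transposons or imprints were also under 0 but by less. Zfp445, which helps to keep imprints, had 8.77 and 7.19 RPKM (log2 -0.29). Zfp568, which represses a placental transcript of Igf2 and was the highest KRAB member, had 24.8 and 20.3 RPKM (log2 -0.29). Zfp932, which represses endogenous retroviruses, had 2.71 and 2.33 RPKM (log2 -0.22), with 38.2% of its sequence shared. Of the 5 genes in this list 4 were members, 1 was more than 2-fold lower and none was higher. The remaining gene, Zfp92, was at 0.02 RPKM or below.

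Zfp59, Zfp626 and Zfp607 are neighbouring KRAB genes on chromosome 7 with the same KRAB start. Zfp59 had 6.47 RPKM in WT cells and 2.59 in G34R cells, a log2 ratio of -1.32 (-1.45 to -1.20). Zfp626 had 3.35 and 1.36 RPKM (log2 -1.30, interval -1.61 to -0.99), and Zfp607 had 2.09 and 0.83 (log2 -1.33, interval -1.63 to -1.03). The levels of the 3 genes differed, but their ratios fell within each other's counting intervals. They shared 5.37%, 5.81% and 14.02% of their sequence with other genes.

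Zfp960 and Zfp97 lie next to each other on chromosome 17, less than 1 Mb before a removed region. Zfp960 had 13.7 RPKM in WT cells and 6.43 in G34R cells (log2 -1.09), and Zfp97 had 13.2 and 6.26 (log2 -1.08). They shared 81.9% and 80.4% of their sequence with other genes, so their nearly equal values cannot be read as independent measurements. Zfp938 on chromosome 10 had 2.10 and 1.01 RPKM (log2 -1.06), with no shared sequence. The interval of Zfp938 reached -0.78, inside 2-fold.

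The other members past 2-fold were below the 2 RPKM asked of the genes with the most extreme ratios, and are named because they complete the 11. Zfp69, a KRAB gene on chromosome 4 that has been linked to diabetes in mice, had 1.37 and 0.55 RPKM (log2 -1.32, interval -1.66 to -0.99). Zfp119a on chromosome 17 had 1.49 and 0.71 RPKM (log2 -1.07, interval -1.45 to -0.70). Just short of 2-fold were the KRAB genes Zfp119b (2.68 and 1.37 RPKM, log2 -0.97), Zfp870 (6.27 and 3.22, log2 -0.96) and Zfp808 (9.07 and 4.71, log2 -0.95). For 5 of the 11 lower members (Zfp951, Zfp846, Zfp607, Zfp59 and Zfp809) the whole counting interval was past 2-fold, and for the other 6 it reached inside. The 12 lowest ratios among members with at least 2 RPKM were thus all of the KRAB class under the widest pattern.

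**Figure D4:**
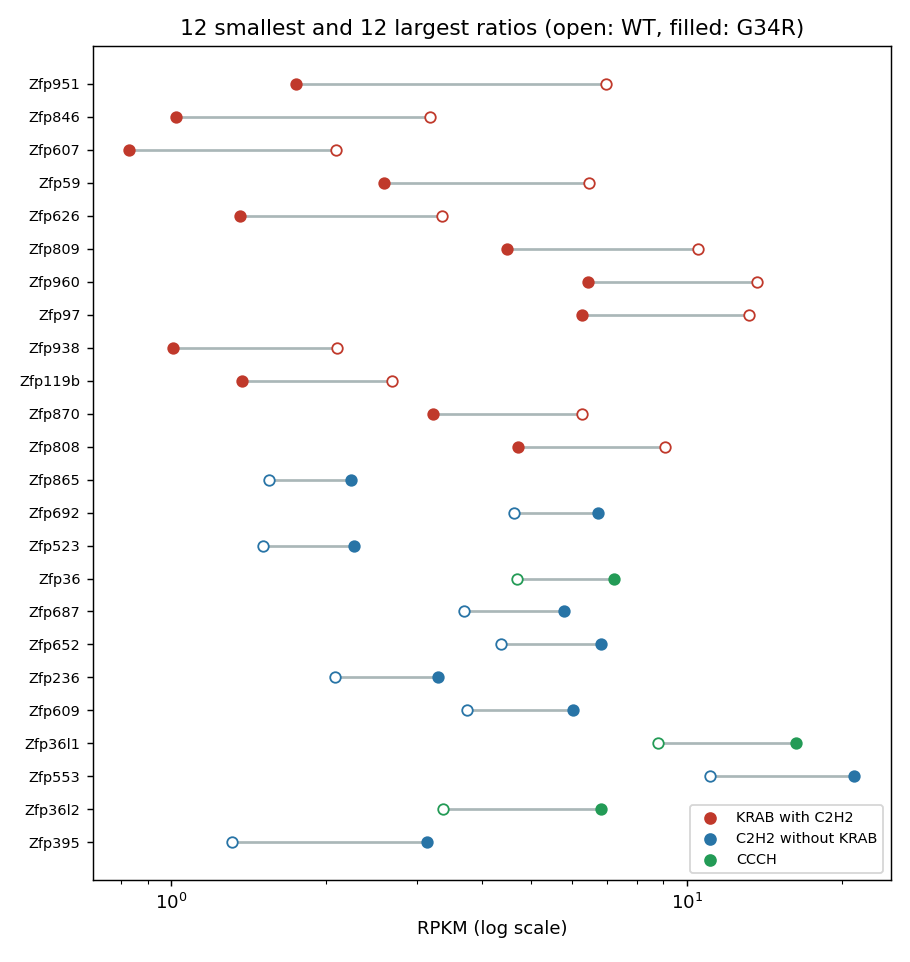
RPKM (x axis, log scale) in WT cells (open circles) and G34R cells (filled circles) for the 12 members with the smallest and the 12 with the largest log2 ratio among those with at least 2 RPKM in 1 sample, coloured by protein class. All 12 genes that are lower in G34R cells are of the KRAB class under the widest pattern, and none of the 12 that are higher is. The widest gap is that of Zfp951, from 6.96 to 1.75 RPKM.

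The 3 expressed genes of the Zfp36 family were higher in G34R cells. Their CCCH proteins bind AU-rich elements of mRNA and speed its decay. Zfp36l2 had 3.36 RPKM in WT cells and 6.83 in G34R cells, a log2 ratio of 1.02 (interval 0.91 to 1.14). Zfp36l1 had 8.79 and 16.3 RPKM (log2 0.89), and Zfp36 had 4.68 and 7.22 (log2 0.63). Of these, 1 was past 2-fold, and the median log2 ratio was 0.89. Zfp36l3, the remaining gene of the family, had 0.16 and 0.03 RPKM and was no member. None of the 3 shares 50-base stretches with a protein-coding transcript of another gene.

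Zfp395, a transcription factor gene with 1 C2H2 finger found, had the largest ratio of all members, with 1.31 RPKM in WT cells and 3.14 in G34R cells (log2 1.26, interval 1.10 to 1.42). Zfp553, a C2H2 gene with 12 fingers, had 11.1 and 21.1 RPKM (log2 0.93). The other genes among the 12 largest ratios lay between log2 0.52 and 0.68 and carry C2H2 fingers without KRAB. They include Zfp609, a cofactor of cohesin loading (3.75 and 6.01 RPKM, log2 0.68), and Zfp652, a transcriptional repressor (4.36 and 6.83, log2 0.65). Zfp236 had log2 0.66, Zfp687 0.64, Zfp523 0.58, Zfp692 0.54 and Zfp865 0.52. The KRAB member with the largest ratio was Zfp790, which went from 0.69 to 1.06 RPKM (log2 0.62).

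Zfp genes known in self-renewal and pluripotency lay on both sides of 0, and none of the 8 members of this list passed 2-fold. Zfp296, a partner of Klf4 used in reprogramming, had 21.4 RPKM in WT cells and 11.5 in G34R cells, a log2 ratio of -0.90 (interval -0.998 to -0.81) and the lowest among C2H2 members without KRAB. Zfp322a, a regulator of Pou5f1, had 5.17 and 3.09 RPKM (log2 -0.74). Zfp143, an activator of Nanog, had 8.20 and 6.26 (log2 -0.39), and Zfp281, which acts at the Nanog promoter, had 15.9 and 12.6 (log2 -0.34). Zfp706, which holds back Klf4, had 14.6 and 13.51 (log2 -0.11). On the other side were Zfp207 (19.8 and 22.6 RPKM, log2 0.19), a mitosis and splicing factor, Zfp217 (9.27 and 11.4, log2 0.30), which works with CoREST, and Zfp462 (8.04 and 11.2, log2 0.47), which recruits H3K9 methyltransferases. The median over the list was -0.22, and Zfp398 was under 1 RPKM in both samples. These values stand beside the lower Nanog level given above, whose part in them was not tested.

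Chromatin cofactors were likewise divided, with 12 members and none past 2-fold. The lowest was Zfp219, a transcriptional regulator, with 23.3 RPKM in WT cells and 13.96 in G34R cells (log2 -0.74). Zfp518a, which has been linked to the H3K9 methyltransferase G9a, had 13.97 and 9.13 RPKM (log2 -0.61), while its relative Zfp518b had 10.5 and 13.6 (log2 0.37). Zfp687, Zfp592 and Zfp532, which form a complex with the histone reader ZMYND8, were all above 0, at log2 0.64, 0.13 and 0.44. Zfp644, a G9a partner, was at log2 -0.20, Zfp410, an activator of Chd4, at -0.37, Zfp335, a part of an H3K4 methyltransferase complex, at 0.12, and Zfp148 at 0.25. Zfp451, a SUMO ligase, had 2.47 and 2.43 RPKM (log2 -0.02), a difference inside its counting interval. The median over the 12 was 0.13.

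Members that act on RNA or ribosomes had a median log2 ratio of -0.10, and none of 7 passed 2-fold. Zfp106, an RNA-binding protein and the highest of all members, had 33.7 RPKM in WT cells and 37.8 in G34R cells (log2 0.17). Zfp346, which binds double-stranded RNA, had 5.32 and 3.31 (log2 -0.68). Zfp622, a factor of large ribosomal subunit assembly, had 13.8 and 10.04 (log2 -0.46), and Zfp593, in the same process, had 8.49 and 6.68 (log2 -0.35). Zfp598, a ubiquitin ligase for stalled ribosomes, had 14.1 and 13.3 (log2 -0.09), Zfp830 had 4.3 and 4 (log2 -0.10), and Zfp326 had 1.26 and 1.5 (log2 0.25). At 1.5-fold, 1 of the 7 (Zfp346, 14.3%) was lower, beside 14.1% of all genes, and none was higher, beside 11.3%.

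Among the other members at 20 RPKM or more were Zfp428, with 28.3 RPKM in WT cells and 17.3 in G34R cells (log2 -0.71), Zfp740, with 20.7 and 16.6 (log2 -0.32), and Zfp710, with 20.4 and 16.3 (log2 -0.33). None of them carries KRAB. Of 12 genes known in neural or other development only 4 were members, with log2 ratios from -0.21 (Zfp365) through 0.14 (Zfp238) and 0.26 (Zfp385a) to 0.41 (Zfp516), which works with Prdm16 in brown fat. The other 8 were under 1 RPKM in both samples, among them Zfp521 at 0.07 and 0.42 RPKM. These low levels stand beside that of Olig2 given above.

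The lower KRAB members were spread over chromosomes 4, 5, 7, 9, 10 and 17. On chromosome 17, 3 of 17 KRAB genes were more than 2-fold lower and the KRAB median was -0.52, and 7.38% of all genes on that chromosome were lower. On chromosome 7, the one with most members, 25 of 50 were KRAB genes and 3 of these were more than 2-fold lower, which is 6% of all members there, beside 8.20% of all genes on it. Not every chromosome was alike, and the 4 KRAB members of chromosome 6 all lay above 0.

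**Figure D5:**
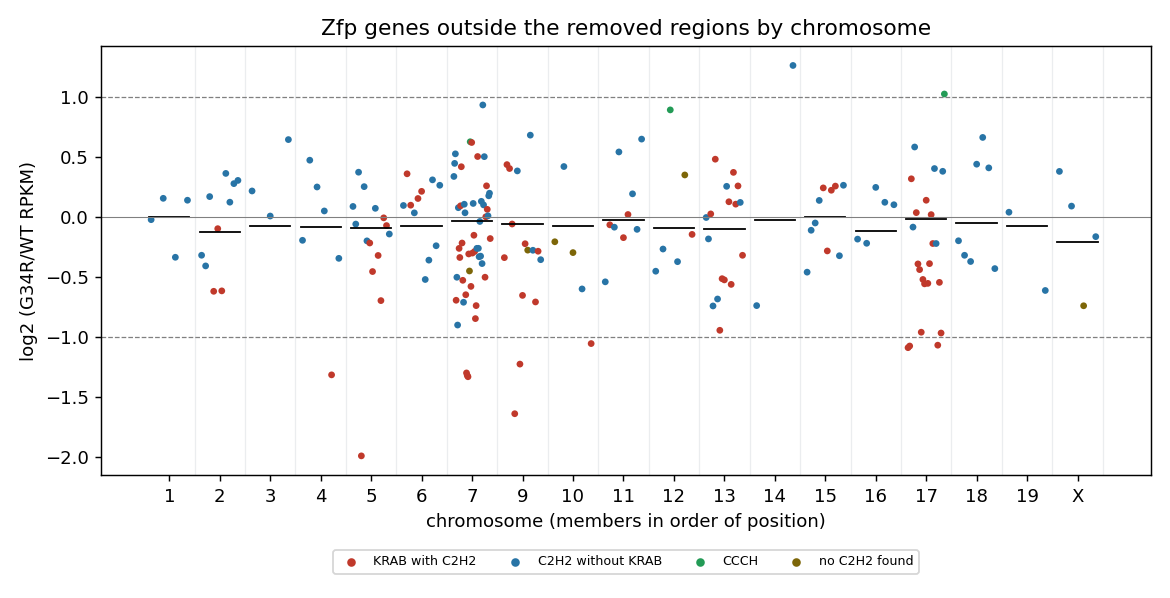
The log2 (G34R/WT RPKM) of each member by chromosome (x axis, members in order of position, evenly spaced), coloured by protein class. Short black lines mark the median of all genes at 1 RPKM or more on the chromosome and dashed lines 2-fold, and chromosome 8 was left out by the rule. The lowest points are on chromosomes 5, 9, 7 and 4, and chromosome 17 has a run of KRAB genes below 0.

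Some members lie in runs of at least 3 with gaps under 1 Mb, and 18 such runs were found. In the run at 28.52 to 29.16 Mb of chromosome 7, which holds Zfp59, Zfp626 and Zfp607, 6 of 7 members were under 0 with a median log2 ratio of -0.65. The exception there was Zfp36, at 0.63, and the 9 other genes in the interval had a median of 0.16. In the run at chr17:56004469-56084597, Zfp119a, Zfp959 and Zfp119b had a median of -0.97. The 3 members at 149.94 to 150.31 Mb of chromosome 2 had a median of -0.62, from -0.62 (Zfp120) to -0.10 (Zfp937). The 3 members at 62.23 to 62.62 Mb of chromosome 13 had -0.53, from -0.95 (Zfp808) to -0.52 (Zfp935). In these runs the KRAB members were all under 0.

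Of the run at 81.37 to 81.70 Mb of chromosome 10, all 3 members were under 0 (median -0.60, from -1.06 for Zfp938 to -0.30 for Zfp781), and 1 of them was placed in the KRAB class. In a run on chromosome 18, none of 3 members carries KRAB and all were under 0 (median -0.32, from -0.37 for Zfp191 to -0.20 for Zfp397).

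Other runs held members on both sides of 0 or lay above it. The 12 members at 32.91 to 33.77 Mb of chromosome 17 had a median of -0.39 but ranged from -0.96 (Zfp870) to 0.40 (Zfp414), which carries no KRAB. The 5 KRAB members at 19.45 to 20.4 Mb of chromosome 9 ranged from -1.64 (Zfp846) to 0.44 (Zfp26), with a median of -0.06. The 4 members at 21.86 to 22.09 Mb of the same chromosome, 3 of them KRAB genes, ranged from -1.23 (Zfp809) to 0.38 (Zfp653, which carries no KRAB), with a median of -0.44. The 11 at 30.55 to 30.95 Mb of chromosome 7 had a median of -0.26, from -0.85 (Zfp82) to 0.62 (Zfp790). The 5 members at 67.77 to 67.93 Mb of chromosome 13 are all KRAB genes, and only 1 of them was under 0, with a median of 0.13. Other runs with medians of 0.1 or more were those at 4.87 to 4.98 Mb of chromosome 7 (3 members without KRAB, median 0.45), at 75.45 to 76.75 Mb of chromosome 15 (6 members, median 0.18) and at 47.83 to 48.57 Mb of chromosome 6 (6 members, median 0.12). The 3 members at 58.12 to 59.29 Mb of chromosome 11 had a median of 0.02. Over the 9 members at 134.38 to 135.03 Mb of chromosome 7 the median was 0.10, from -0.50 (Zfp747) to 0.93 (Zfp553). Neighbouring Zfp genes were therefore not always alike, and KRAB genes in the same run could differ by over 2 on the log2 scale.

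KRAB genes with other kinds of symbol were examined outside the same regions, since the rule took only Zfp symbols. Of 20 such genes 16 (80.0%) were under 0, beside 54.8% of all genes, and the median log2 ratio was -0.54, beside -0.05. At 1.5-fold, 9 (45.0%) were lower, beside 14.1% of all genes. At 2-fold, 1 (5%) was lower, beside 6.42%. Single genes are named here after their values were seen. Only C030039L03Rik, just before the chromosome 7 run of Zfp59, was more than 2-fold lower, with 1.96 RPKM in WT cells and 0.26 in G34R cells (log2 -2.91). Gm14124, Gm14139 and Gm10130, in or beside the chromosome 2 run, went from 6.39 to 3.39, from 7.10 to 3.93 and from 6.69 to 3.98 RPKM. Gm15446, known to repress endogenous retroviruses with Zfp932, had 1.92 and 2.28 RPKM (log2 0.25). Other zinc finger families were taken over all chromosomes, with the removed regions and chromosome 8 included, so their values are not limited to genes outside the clusters. Their median was 0.03 for 30 Zbtb genes, 0.06 for 13 Klf genes and -0.29 for 18 Zscan or Zkscan genes. Those 18 were widely spread, with quartiles of -3.79 and 0.03. Of them 6 (33.3%) were more than 3-fold lower, beside 3.29% of all genes.

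The genes of the KRAB corepressor machinery were measured in the same libraries, and none of the 10 rows found for them was past 2-fold. Trim28, which KRAB domains bind, had 326.8 RPKM in WT cells and 222.5 in G34R cells (log2 -0.55). Smarcad1, a remodeller that works with TRIM28, had 22.8 and 12.1 RPKM (log2 -0.91), and Setdb1 had 15.1 and 15.3 (log2 0.02). The heterochromatin protein genes Cbx1, Cbx3 and Cbx5 lay between log2 -0.14 and -0.05.

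The limits of the set were set by level and position. Zfp282 (0.78 and 1 RPKM), Zfp449 (0.94 and 1) and Zfp94 (1.01 and 0.70) were just inside the limit of 1 RPKM. Zfp334 (0.77 and 0.96), Zfp438 (0.94 and 0.64) and Zfp454 (0.94 and 0.62) were just outside it, and 73 Zfp genes outside the regions were under it in both samples. At the chromosome 17 region, Zfp97 (log2 -1.08) was the last member before it and Zfp13 (0.32) the next after it, with Zfp160 (-0.14) and Zfp213 (1.11) the outermost genes inside. At the chromosome 4 region, Zfp593 (-0.35) was the last member before it, and Zfp600 (-2.57) and Zfp534 (-1.27) were the outermost inside. At the chromosome 7 regions, the members next to the edges were Zfp865 (0.52), Zfp324 (-0.70), Zfp507 (-0.33) and Zfp473 (-0.04). The outermost genes inside were Zfp580 (0.66), Zfp110 (-0.28), Zfp788 (-0.73) and Zfp819 (-0.97). At the chromosome 13 region, Zfp367 (0.25) and Zfp738 (0.13) were outside and Zfp369 (-0.23) and Zfp748 (-0.22) inside. On chromosome 2, Zfp217 (0.30) was the nearest member and Zfp931 (-0.11) the only expressed Zfp gene inside. Of the 68 Zfp genes left out by the rule, 12 (17.6%) were more than 2-fold lower, beside 6.42% of all genes. Another 3 (4.41%) were higher, beside 4.09%, and the median of the 68 was -0.17. The regions had been picked from these same ratios.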

How the data were processed

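Total RNA of WT and G34R ES cells was sequenced as stranded 50 bp single reads. The authors aligned these to mm9 with STAR (2.4.2a), took primary alignments into Seqmonk, and deposited RPKM for each gene over its merged isoforms, normalised by length and by the total of that library. A change in total RNA per cell would not be seen in RPKM.

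The members and lists were chosen with earlier results of these data known. The log2 ratio of G34R to WT RPKM was taken after raising values below 0.01 to 0.01, for genes with at least 1 RPKM in 1 sample. There was 1 library per cell line, so no test was run and no p-value is given. Reads per gene were estimated from RPKM, exon length and a depth read from single-exon genes under 800 bp, of which 100% of 75 (WT) and 67 (G34R) fell on whole-read steps within the rounding of the files. Intervals are exact (Clopper-Pearson, 95%) and cover counting error only.

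All 203 members were matched to GENCODE M1 (mm9 coordinates). Its coding sequences were translated and searched for C2H2, CCCH and KRAB patterns in place of RefSeq proteins. Read sharing was scored by exact 50-base matches between its protein-coding transcripts. Sequences shown are from the mm9 genome. Genes were named as the 12 largest and 12 smallest ratios with at least 2 RPKM in 1 sample, the 6 highest mean RPKM, role lists, the extremes of neighbour runs, and the genes at each limit.

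On simulated data with 4-fold changes planted in 200 of 10728 genes, 100% of the 188 that passed the minimum were recovered. The simulation drew counting error alone, so it cannot show how far 2 libraries of the same cells would differ. Alternatives were other pseudocounts, filters, scalings, symbol patterns and folds, with KRAB patterns and a limit on shared sequence added after seeing the data. Python 3.11.15, NumPy 2.4.6, pandas 2.3.3, SciPy 1.17.1, Biopython 1.88 and matplotlib 3.10.9 were used.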

Additional observations from a re-analysis of the deposited data

How the results depend on the processing

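Counts of members past 2-fold depended on the low-value settings. Adding 1 RPKM gave 4 lower (all KRAB) and 0 higher, and a minimum of 0.25 RPKM gave 17 lower and 4 higher of 242. With no minimum there were 22 lower (17 KRAB) and 7 higher of 276. A minimum of 5 RPKM left 67 members, with 5 lower (all KRAB), 1 higher and a median log2 ratio of -0.22. There 7.46% of members were lower beside 4.07% of all genes, where the main values were 5.42% and 6.42%. A fold of 1.5 gave 31 lower (15.3%, 23 of them KRAB) and 10 higher (4.93%), beside 14.1% and 11.3% of all genes. A fold of 3 gave 2 lower (0.985%, both KRAB) and 0 higher, beside 3.29% and 1.57%. Symbols of digits alone left 1 higher (0.538%), beside 4.09% of all genes. Chosen after seeing the data, the limit to genes with under 5% of their sequence shared left 5 lower, all KRAB, and a stricter KRAB pattern left 7 lower KRAB members. Rescaling to the same RPKM sum or centring on the median of all genes (shifts of 0.05 in log2) left 11 lower and 2 higher. Of all genes, 6.11% were lower and 4.6% higher with the same sum, and 6.03% and 4.68% after centring. The KRAB settings were also chosen after seeing the data. The KRAB median ran from -0.41 to -0.19 over all settings, and that of members without KRAB from -0.06 to 0.09. Of 84 members named, Zfp451 and Zfp473 changed sign under these scalings, to 0.02 and 0.03 and to 0.007 and 0.016. No paired analysis was possible because each group has 1 library, and for the same reason no replicate could be left out.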
